A study of Homo sapiens with 6 samples.

Results

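The genes described here encode the solute carrier (SLC) families that move amino acids across cell membranes: SLC1, SLC7 with its SLC3 partners, SLC36, SLC38 and SLC43. They were chosen by their symbols in the platform annotation, and probes that named several genes were skipped. The choice gave 55 of 31741 probes and 41 of 18336 genes, of which SLC7A6OS is a neighbour of SLC7A6 and not a transporter, leaving 40 transporter genes. RNA came from 3 drug flasks (drug 1, 3 and 4) and 3 control flasks (control 2, 5 and 6) of NCI-H446, a cell line of human small cell lung cancer, as labelled, and each flask was measured on its own single-colour Phalanx OneArray. The drug flasks received a chemotherapy drug that the labels leave unnamed, and neither its dose nor its exposure time is stated in the sources used here. The control flasks received 15 µl of DMSO, the usual drug solvent, and whether the drug flasks held the same solvent is not stated. The source names count the volume and the number of the line upward from sample to sample, while the characteristics, used here, give 1 volume and 1 line. The study asked which genes differ after treatment.

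Amino acid transporters differ in substrate and in driving force. Sodium-coupled carriers such as SLC38A2 load the cell with glutamine and other neutral amino acids. Exchangers of the SLC7 family then trade that pool for essential amino acids or for cystine. Most SLC7 light chains reach the cell surface only when linked by a disulfide bond to a heavy chain, SLC3A2 or SLC3A1. In tumour cells SLC7A5 is known as the main entry route for leucine, and SLC7A11 as the supplier of cystine for glutathione.

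All values are log2 of the quantile-normalized intensity plus 1, and a difference of 1 is a 2-fold change. A gene was read from its brightest probe and called changed at a limma adjusted p below 0.05 (Benjamini-Hochberg over all probes). A group mean below 6.86, the lower quartile of the array, is called dim. Before normalization the median intensity lay between 421 and 476 on the drug arrays and between 376 and 439 on the control arrays. Of 9 measured markers of small cell lung cancer, NCAM1, SYP and ENO2 rose and YAP1 fell, and NEUROD1 was the only one dim in both groups. Their summed normalized intensity ran from 22349 to 28839 on the drug arrays and from 28342 to 29522 on the control arrays. YAP1, which averaged 14.23 in control and 11.76 in drug flasks, makes up most of the control sums. Of 7 fibroblast or endothelial markers, the collagen gene COL1A1 alone was called, with a difference of -2.12, and DCN and COL3A1 were dim in both groups. The sum of those 7 markers ran from 7567 to 8786 on the drug arrays and from 28660 to 33204 on the control arrays, and COL1A1, by far the brightest, makes up most of it. The other 6 differed by -0.28 to 0.25 without passing. Of 4 blood cell markers, 1 rose, CD14, with sums from 3022 to 3232 on the drug arrays and from 1859 to 2020 on the control arrays, and PTPRC, CD3E and LYZ were dim in both groups. Of 3 epithelial markers, CDH1 and KRT8 rose, with sums from 1876 to 2001 on the drug arrays and from 1257 to 1573 on the control arrays. CDH1 averaged 6.12 in control, which is dim, and its 2.32-fold rise became 1.77-fold with 50 added in place of 1. In the order given, 44.4%, 14.3%, 25% and 66.7% of the markers in these short lists were called, against 35.1% of all genes. The part of these markers in the transporter results was not tested, and fewer cells of a type cannot be told apart from less RNA per cell.

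The transporters did not move as a block. SLC1A1, SLC7A5, SLC36A1 and SLC38A4 rose in the drug flasks, and SLC7A11, SLC43A3, SLC38A1, SLC7A7, SLC38A6, SLC1A3, SLC36A4, SLC38A2, SLC38A7 and SLC7A1 fell. These 14 of 40 genes are 35.0% of the transporters, against 35.1% of all genes. The 4 that rose are 10%, against 17.6% of all genes, and the 10 that fell are 25%, against 17.5%. On the values as deposited 6 rose and 8 fell, with the median of all genes at 0.20. The median change of the transporters was -0.07, against 0.0075 for all genes, and in absolute size 0.32 against 0.33. Drug and control values did not overlap in 19 transporters (47.5%), against 47.0% of all genes. Rises of at least 2-fold were called in 2 of 40 transporters, against 1470 of 18336 genes (8.02%). Falls of at least 2-fold were called in 5 of 40, against 1409 of 18336 genes (7.68%). Another 9 transporters were dim in both groups and did not pass. SLC7A6OS, the gene next to SLC7A6, differed by 0.22 without passing.

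**Figure D1:**
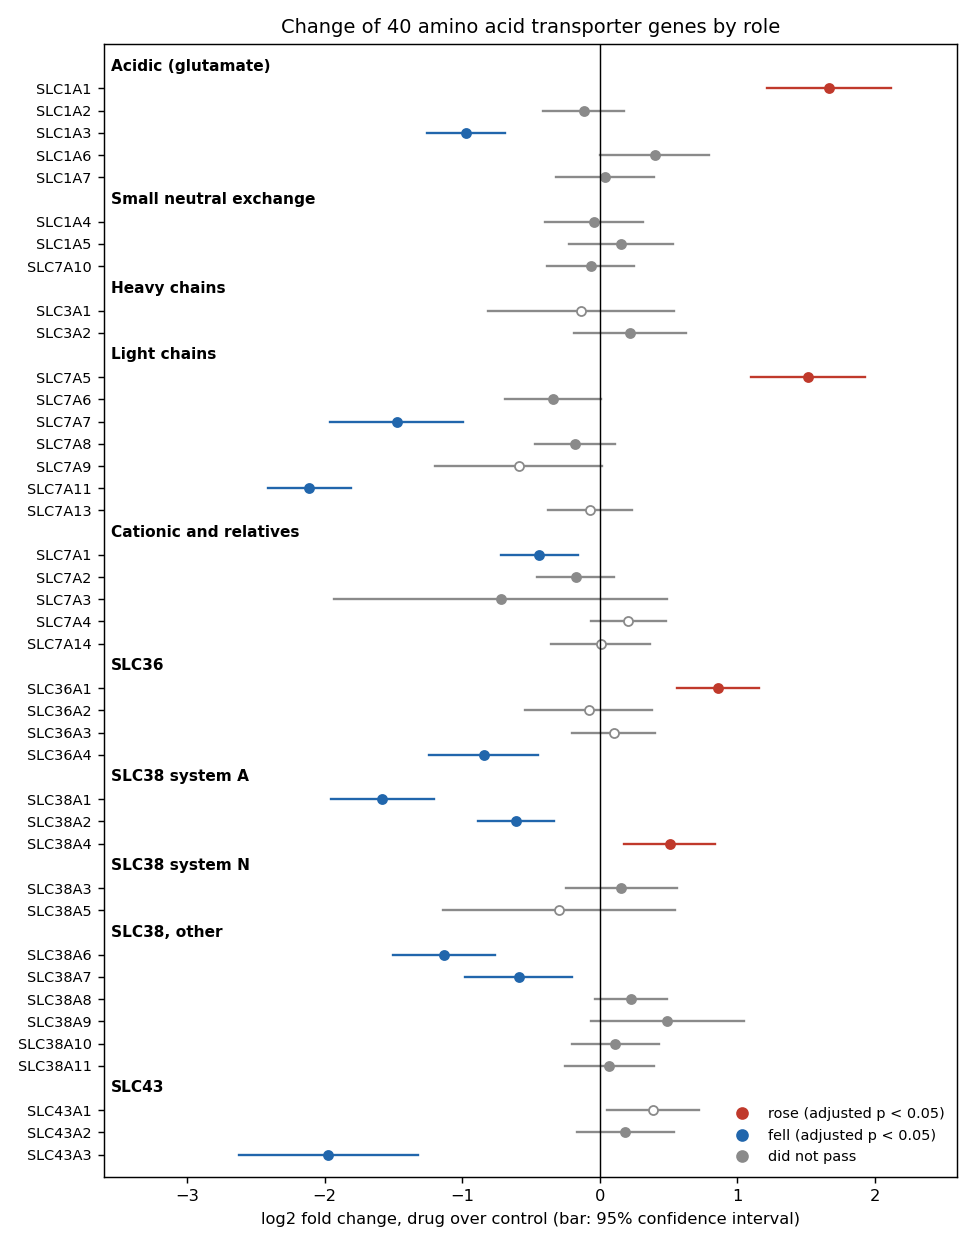
Change of each of the 40 transporter genes, read from its brightest probe, as the log2 fold change of drug over control with its 95% confidence interval, grouped by role. Red genes rose and blue genes fell at an adjusted p below 0.05, grey genes did not pass, and open points are dim in both groups; SLC1A1 lies farthest to the right (1.67) and SLC7A11 farthest to the left (-2.11).

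The light chains of the exchangers went opposite ways. SLC7A11, which imports cystine in exchange for glutamate, read 12.12, 11.91 and 11.94 on drug 1, 3 and 4, against 14.01, 14.06 and 14.24 on control 2, 5 and 6. Every drug array was lower than every control array, by a mean difference of -2.11 (SE 0.13, adjusted p = 4.57e-05), a 4.32-fold lower intensity. Its other probe, dim with the drug, fell as well, reading 5.76, 5.60 and 5.53 on the drug arrays, against 7.34, 7.13 and 6.53 on the control arrays, a 2.57-fold difference that became 1.80-fold with 50 added in place of 1.

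SLC7A5, the exchanger of large neutral amino acids such as leucine, rose. It read 13.72, 13.91 and 14.01 on the drug arrays, against 12.05, 12.42 and 12.63 on the control arrays, with no overlap. The difference was 1.51 (SE 0.18, adjusted p = 0.000636), or 2.86-fold. Pseudogenes of this gene are known that copy part of it, and whether its probe tells them apart was not tested. SLC7A7, which exports cationic amino acids in exchange for neutral ones, read 11.59, 11.78 and 12.05 on the drug arrays, against 13.33, 12.92 and 13.59 on the control arrays. It was lower on every drug array, by a difference of -1.47 (SE 0.21, adjusted p = 0.00143), or 2.78-fold.

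The heavy chain that these light chains share, SLC3A2, did not pass the test. It read 15.73, 15.86 and 15.60 on the drug arrays, against 15.50, 15.80 and 15.23 on the control arrays, and the groups overlapped. Its difference was 0.22, with a 95% confidence interval from -0.19 to 0.63 that lies below the interval of SLC7A5 (1.10 to 1.93) and above those of SLC7A7 (-1.96 to -0.99) and SLC7A11 (-2.41 to -1.81). SLC7A6, the close relative of SLC7A7, read 12.73, 12.69 and 12.56 on the drug arrays, against 13.03, 13.20 and 12.76 on the control arrays. Its difference of -0.34 did not pass (adjusted p = 0.136), although it did without control 6 (adjusted p = 0.0431, the alternatives giving 0.0431 to 0.381). The other probe of SLC7A6 averaged 10.98 in drug and 11.05 in control flasks and gave -0.065 (adjusted p = 0.846). SLC7A8, another exchanger of large neutral amino acids, averaged 8.24 ± 0.10 in drug and 8.42 ± 0.11 in control flasks (SD, n = 3 each here and below), a difference of -0.18 (95% confidence interval from -0.47 to 0.11). The kidney heavy chain SLC3A1 and its light chains SLC7A9 and SLC7A13 were dim in both groups and did not pass. The difference of SLC7A9, -0.59, became -0.87 and passed when drug 1 was left out (adjusted p = 0.0499, range from 0.0499 to 0.953).

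**Figure D2:**
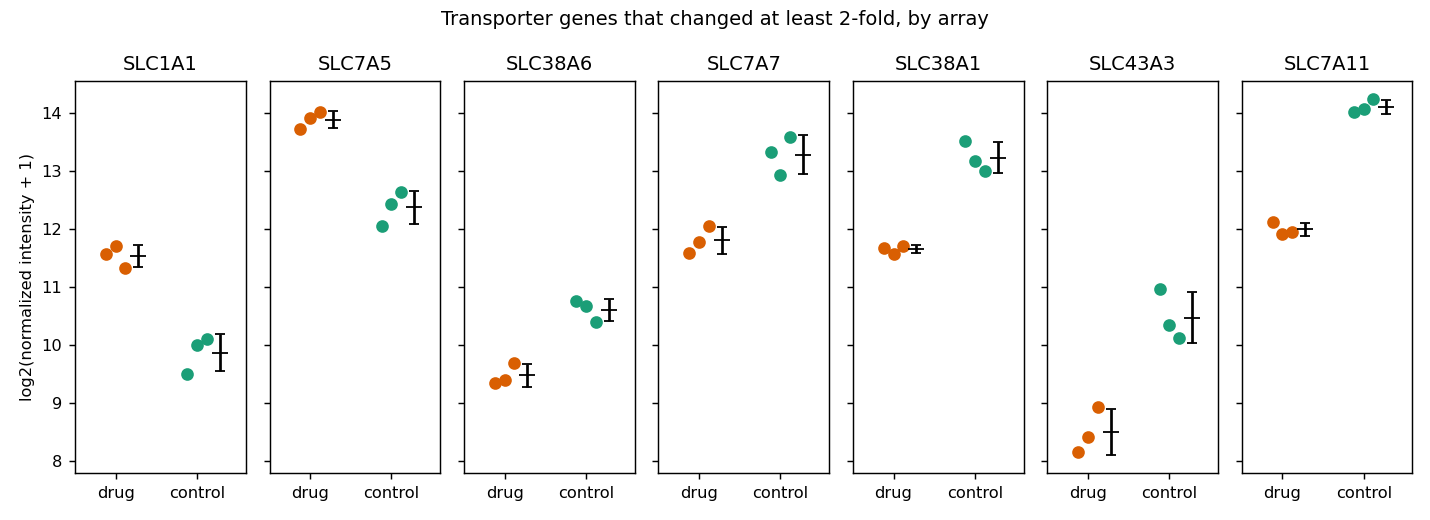
The 7 transporter genes that changed at least 2-fold, by array, as log2(normalized intensity + 1), with drug arrays (orange) left of control arrays (green) in each panel. Points are arrays and black marks are the mean ± SD of 3 arrays; in each panel the drug and control points do not overlap, higher with the drug for SLC1A1 and SLC7A5 and lower for the other genes.

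The start regions of 4 of these genes are shown because they hold letters of elements known for amino acid and oxidative stress control. RefSeq windows on GRCh38.p14, 250 bases before to 50 after a start site of a gene, were available here for 31 of the 40 transporters. SLC7A11 and SLC43A3 had no window, and the windows of SLC1A1 and SLC38A6 held none of the motifs searched. They were searched on both strands for TGATGNAA, the composite element bound by ATF4 with C/EBP factors, for TGACNNNGC, the core of the antioxidant element bound by NFE2L2, and for the E-box CACGTG, bound by MYC and MAX among others. Capitals mark the matches. SLC7A7 and SLC3A2 had 3 windows each and SLC38A1 had 2, and the window with the most matches is shown. The E-box counted below for SLC7A7 lies in a window that is not shown. The windows are chr16:87869458-87869757 (minus strand) for SLC7A5, chr14:22819742-22820041 (minus strand) for SLC7A7, chr11:62881449-62881748 (plus strand) for SLC3A2 and chr12:46266467-46266766 (minus strand) for the glutamine carrier SLC38A1.
SLC7A5: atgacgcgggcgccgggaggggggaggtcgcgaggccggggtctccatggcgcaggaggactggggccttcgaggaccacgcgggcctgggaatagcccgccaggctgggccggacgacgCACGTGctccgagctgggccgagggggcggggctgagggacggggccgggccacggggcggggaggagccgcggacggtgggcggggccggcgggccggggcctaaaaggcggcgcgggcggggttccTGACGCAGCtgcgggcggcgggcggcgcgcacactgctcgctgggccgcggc
SLC7A7: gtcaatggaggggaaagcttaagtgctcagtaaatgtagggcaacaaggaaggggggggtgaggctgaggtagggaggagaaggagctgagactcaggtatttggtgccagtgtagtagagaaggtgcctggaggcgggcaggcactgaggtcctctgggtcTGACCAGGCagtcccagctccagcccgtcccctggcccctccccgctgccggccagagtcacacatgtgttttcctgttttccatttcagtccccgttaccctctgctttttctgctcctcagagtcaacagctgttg
SLC3A2: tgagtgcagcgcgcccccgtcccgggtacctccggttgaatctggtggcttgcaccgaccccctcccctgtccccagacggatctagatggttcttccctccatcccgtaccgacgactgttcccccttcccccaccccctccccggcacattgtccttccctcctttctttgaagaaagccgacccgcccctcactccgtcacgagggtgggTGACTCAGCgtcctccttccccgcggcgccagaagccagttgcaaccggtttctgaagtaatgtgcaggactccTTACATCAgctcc
SLC38A1: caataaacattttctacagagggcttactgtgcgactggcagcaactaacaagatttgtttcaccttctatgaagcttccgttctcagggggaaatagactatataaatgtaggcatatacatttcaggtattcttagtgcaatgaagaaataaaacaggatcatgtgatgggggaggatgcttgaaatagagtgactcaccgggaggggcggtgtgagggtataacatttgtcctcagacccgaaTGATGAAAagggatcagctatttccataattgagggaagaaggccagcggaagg
The window shown for SLC7A5 held an E-box starting at -130 from its start site and an antioxidant core at -2. That of SLC7A7 held an antioxidant core at -88. That of SLC3A2 held an antioxidant core at -37 and an ATF4 composite at 38 on the other strand. That of SLC38A1 held an ATF4 composite at -4. No motif overlapped another in these windows.

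Over all 31 transporters with a window, 6 genes held the ATF4 composite, 7 the antioxidant core and 9 the E-box. These are 19.4%, 22.6% and 29.0% of the genes, against 4.46%, 16.1% and 8.77% of all 27305 genes with a window of this length. Those 27305 genes were not limited to the 18336 on the array, so the transporters are set against a wider set of genes. The transporters had 53 windows for 31 genes, against 35116 windows for all 27305 genes. Counted per window, the shares were 11.3% against 3.62% for the ATF4 composite, 13.2% against 13.3% for the antioxidant core and 17.0% against 7.26% for the E-box. The ATF4 composite was found in 3 of the 8 genes that fell and had a window (SLC1A3, SLC38A1 and SLC7A1). It was found in 0 of the 4 that rose and in 3 of the 19 that did not pass (SLC1A4, SLC1A5 and SLC3A2). The antioxidant core was found in 3 of the 8 that fell, in 1 of the 4 that rose (SLC7A5) and in 3 of the 19 that did not pass. The E-box was found in 2 of the 4 that rose (SLC36A1 and SLC7A5), in 2 that fell (SLC38A7 and SLC7A7) and in 5 that did not pass. These matches describe letters and not binding.

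Transporters of acidic amino acids also split. SLC1A1, a sodium-driven importer of glutamate, aspartate and cysteine in neurons and epithelia, read 11.56, 11.70 and 11.33 on the drug arrays, against 9.50, 9.99 and 10.10 on the control arrays. All drug arrays were higher, by a difference of 1.67 (SE 0.19, adjusted p = 0.000601), or 3.18-fold. SLC1A3, the glutamate importer known from glia, averaged 10.86 ± 0.046 in the drug flasks and 11.83 ± 0.13 in the control flasks and fell by 0.97 on the log2 scale (SE 0.12, adjusted p = 0.00084). Its dimmer probe gave -0.28 and did not pass (adjusted p = 0.188). SLC1A2, SLC1A6 and SLC1A7, known from astrocytes, Purkinje cells and retina, lay between 6.47 and 7.60 as group means and differed by -0.12, 0.40 and 0.037, without passing, and the other probe of SLC1A6 gave -0.41.

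The exchangers of small neutral amino acids did not pass the test. SLC1A5, the main glutamine exchanger of many tumour lines, read 12.83, 12.74 and 12.57 on the drug arrays, against 12.29, 12.60 and 12.78 on the control arrays. The groups overlapped, and the difference of 0.15 has a 95% confidence interval from -0.22 to 0.53. SLC1A4, an exchanger of alanine, serine and cysteine, differed by -0.04 (95% confidence interval from -0.40 to 0.32), and SLC7A10, which handles small neutral amino acids in brain and fat, by -0.066 (from -0.38 to 0.25). Each of these intervals leaves out a 2-fold change in either direction.

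Of the cationic amino acid carriers and their relatives, 1 of 5 passed (20%, against 35.1% of all genes). SLC7A1, the widely expressed arginine and lysine carrier, read 8.98, 9.12 and 9.23 on the drug arrays, against 9.55, 9.52 and 9.58 on the control arrays. The drug arrays were all lower, by a difference of -0.44 (SE 0.12, adjusted p = 0.0266). The call was lost without any array but drug 4 (adjusted p from 0.055 to 0.117), with 0.0155 to 0.125 over the alternatives that set no minimum change. SLC7A2, an inducible arginine carrier, averaged 12.56 ± 0.07 in drug and 12.74 ± 0.11 in control flasks and did not pass on either probe (-0.18 and 0.33). SLC7A3, an arginine carrier known from brain, read 6.80, 7.30 and 6.58 with the drug, against 8.39, 8.10 and 6.35 in control 2, 5 and 6. Control 6 lay below the other control arrays, and the difference of -0.72 did not pass (adjusted p = 0.373), whereas without control 6 it was -1.38 (adjusted p = 0.0102, range from 0.0102 to 0.692). SLC7A4 and SLC7A14, relatives that bind no heavy chain, were dim in both groups and differed by 0.21 and 0.0086, with -0.044 on the other probe of SLC7A14. SLC7A4 passed on the values as deposited (0.59, adjusted p = 0.0398).

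Members of the SLC38 family carry glutamine and other small neutral amino acids with sodium. The neighbours SLC38A1, SLC38A2 and SLC38A4 on chromosome 12 were all called, in different directions (3 of 3, against 35.1% of all genes). SLC38A1 read 11.67, 11.57 and 11.70 on the drug arrays, against 13.52, 13.17 and 12.99 on the control arrays. It was lower on every drug array, by a difference of -1.58 (SE 0.16, adjusted p = 0.000353), or 2.99-fold, and its other probe gave -1.94 (adjusted p = 0.000115). SLC38A2, the carrier that cells raise when amino acids are scarce, fell by 0.61 on the log2 scale (SE 0.12, adjusted p = 0.00654), with means of 16.36 ± 0.095 in drug and 16.97 ± 0.08 in control flasks. SLC38A4, known from liver and placenta, rose by 0.51 (SE 0.14, adjusted p = 0.0295), with means of 8.17 ± 0.16 in drug and 7.67 ± 0.14 in control flasks. That call was lost without control 2, control 6, drug 3 or drug 4 (adjusted p from 0.0634 to 0.113, within a range from 0.00152 to 0.113). Its other probe, dim in the control flasks, read 7.09, 7.16 and 6.95 on the drug arrays, against 5.28, 5.81 and 5.68 on the control arrays, a rise of 1.48 (adjusted p = 0.000543) and 2.79-fold that became 1.88-fold with 50 added.

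Of the 6 other SLC38 genes, 2 fell (33.3% called, against 35.1% of all genes). SLC38A6, a less studied member, read 9.33, 9.39 and 9.69 on the drug arrays, against 10.75, 10.67 and 10.39 on the control arrays. The groups did not overlap, and the difference was -1.13 (SE 0.16, adjusted p = 0.00139). SLC38A7, which exports glutamine and asparagine from lysosomes, averaged 10.76 ± 0.065 in drug and 11.35 ± 0.29 in control flasks and fell by 0.59 on the log2 scale (adjusted p = 0.031). The call of SLC38A7 was lost without control 2, control 5 or any drug array (adjusted p from 0.0695 to 0.106), within a range from 0.0114 to 0.106. SLC38A9, the lysosomal arginine sensor of the growth kinase mTORC1, averaged 9.77 ± 0.36 in drug and 9.28 ± 0.32 in control flasks, a difference of 0.49 that did not pass (adjusted p = 0.174). SLC38A10 did not pass on any of its 3 probes (differences from 0.085 to 0.16), and SLC38A8 and SLC38A11 differed by 0.23 and 0.071. The system N carriers SLC38A3 and SLC38A5, which move glutamine and histidine in exchange for protons, differed by 0.16 and -0.29 without passing, and SLC38A5 was dim in both groups.

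The SLC36 carriers split as well. SLC36A1, a proton-coupled carrier known at the lysosome, averaged 11.12 ± 0.062 in the drug flasks and 10.26 ± 0.15 in the control flasks and rose by 0.86 (SE 0.13, adjusted p = 0.00187). Its dimmer probe gave 0.30 and did not pass (adjusted p = 0.223). SLC36A4, known as a carrier of proline and tryptophan that is not coupled to protons, fell on both of its probes, with differences of -0.84 (adjusted p = 0.00733) and -0.67 (adjusted p = 0.00653), with means of 9.54 ± 0.16 in drug and 10.38 ± 0.26 in control flasks on the brighter probe. SLC36A2 and SLC36A3, which neighbour SLC36A1 on chromosome 5, were dim in both groups and did not pass.

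In the SLC43 family the member that fell is not known as an amino acid carrier. SLC43A3, a transporter of purine nucleobases, read 8.14, 8.42 and 8.93 on the drug arrays, against 10.95, 10.33 and 10.12 on the control arrays. Every drug array was lower, by a difference of -1.97 (SE 0.28, adjusted p = 0.00146), or 3.93-fold. The facilitators of large neutral amino acids, SLC43A1 and SLC43A2, differed by 0.39 (adjusted p = 0.0821) and 0.19 (adjusted p = 0.432), and SLC43A1, dim in both groups, passed on the values as deposited (0.93, adjusted p = 0.0481). SLC43A3 and SLC43A1 lie near each other on chromosome 11, with 1 gene between them.

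**Figure D3:**
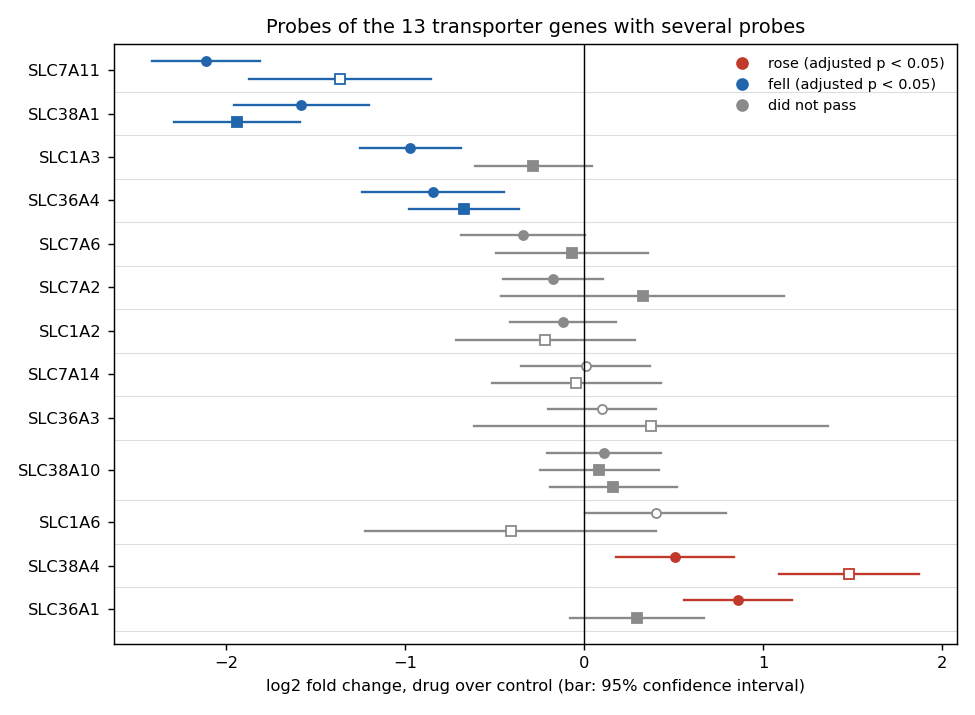
The probes of the 13 transporter genes with more than 1 probe, as log2 fold change of drug over control with its 95% confidence interval. Circles are the brightest probe of a gene, squares its other probes, and open symbols are dim in at least 1 group; SLC7A11, SLC38A1, SLC36A4 and SLC38A4 were called on every probe, SLC1A3 and SLC36A1 on the brightest probe only, and 0 genes had calls of opposite sign.

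Carriers outside these families were read from lists of the same kind. Of 11 other carriers listed as surface carriers, 2 rose and 9 did not pass (18.2% called, against 35.1% of all genes). The risers were the taurine carrier SLC6A6, with means of 14.27 ± 0.016 in drug and 12.92 ± 0.35 in control flasks (difference 1.35, adjusted p = 0.00132), and the neutral amino acid carrier SLC6A17, which is known from synaptic vesicles rather than the surface, with 8.10 ± 0.21 in drug and 6.98 ± 0.089 in control flasks (difference 1.12, adjusted p = 0.00102). Of the 3 probes of SLC6A6, 1 gave 0.056 and did not pass. Among the 9, dimmer probes of 2 genes rose although the brightest did not pass. For the aromatic amino acid carrier SLC16A10 the other probe gave 1.40 (adjusted p = 0.00119), and the brightest 0.40 (adjusted p = 0.11). That other probe averaged only 6.20 in control, which is dim, and adding 50 in place of 1 cut its rise from 2.64-fold to 1.98-fold. For the neutral amino acid carrier SLC6A15, 3 of 5 probes gave 1.02, 0.80 and 1.22 (adjusted p = 0.0272, 0.0447 and 0.0239). Its brightest probe gave 0.048 (adjusted p = 0.86). The SLC6A15 probe giving 1.02 was dim in control, and those giving 0.80 and 1.22 were dim in both groups. Adding 50 cut these 3 rises from 2.03-fold, 1.74-fold and 2.34-fold to 1.57-fold, 1.27-fold and 1.51-fold. Of 8 vesicular and lysosomal carriers, 1 rose and 1 fell (25% called). The lysosomal peptide and histidine carrier SLC15A3 fell by 1.64 on the log2 scale (adjusted p = 0.000101). The lysosomal cystine exporter CTNS rose by 0.61 (adjusted p = 0.00466), but its other probe gave -0.55 (adjusted p = 0.062), and with the mean of both probes the difference was 0.029 (adjusted p = 0.905, range from 0.00175 to 0.905).

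Of 10 mitochondrial carriers, 1 rose and 3 fell, a share of 40% called that is near the 35.1% of all genes. SLC25A44, which carries branched-chain amino acids into mitochondria, rose by 1.40 (adjusted p = 0.0124). The ornithine carrier SLC25A15, the serine carrier SFXN1 and the glycine carrier SLC25A38 fell, with differences of -1.05, -0.97 and -0.56 (adjusted p = 0.00456, 0.00362 and 0.0279). The call of SLC25A38 was lost without control 5, control 6 or any drug array (adjusted p from 0.0525 to 0.0772, within a range from 0.0138 to 0.0772).

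Enzymes that use the carried amino acids were mostly higher where they were called. Of 22 measured genes of amino acid and glutathione metabolism, 9 rose and 1 fell (45.5% called, against 35.1% of all genes). The list was chosen with earlier results of these data known, so these counts are no test of it. None of the 22 was dim in both groups, and of all genes not dim in both groups 41.0% were called. Their median difference was 0.45, against 0.0075 for all genes. With each array centred on its median, 6 in place of 10 were called. ARG2, the mitochondrial arginase, averaged 12.70 ± 0.30 in drug and 8.65 ± 0.083 in control flasks. That is a difference of 4.04 (SE 0.17, adjusted p = 1.61e-05), or 16.5-fold. ODC1, which makes the polyamine putrescine from ornithine, rose by 2.01 (adjusted p = 5.6e-05) and GPT2, a mitochondrial alanine transaminase, by 1.20 (adjusted p = 0.000503). BCAT1, the cytosolic branched-chain transaminase, was the gene that fell, by 2.06 on the log2 scale (adjusted p = 0.000687).

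Of 12 regulators known from the control of transporter transcription, 3 rose and 5 fell (66.7% called, against 35.1% of all genes). Of all genes not dim in both groups 41.0% were called, and 1 of the 12 regulators was dim in both. This list was chosen with earlier results of these data known, so its share is no test. NFE2L2, the activator of antioxidant genes that include SLC7A11, fell by 1.02 on the log2 scale (adjusted p = 0.000809). KEAP1, which marks the NFE2L2 protein for degradation, fell by a difference of -2.17 (adjusted p = 9.64e-05). Of the glutathione synthesis genes in the enzyme list, GCLM rose by 0.73 (adjusted p = 0.00872). GCLC and GSS differed by -0.055 and -0.41 without passing. ATF4, the activator of amino acid response genes, averaged 14.90 ± 0.058 in drug and 15.44 ± 0.13 in control flasks, a difference of -0.54 (adjusted p = 0.0123), but its other probe gave 0.016 (adjusted p = 0.957). NUPR1 and ATF5, stress factors known as ATF4 targets, fell, with differences of -3.48 and -3.44, while ATF3, another such target, rose by 1.83, with adjusted p-values of 1.91e-05, 2.47e-05 and 7.48e-05. CEBPB and DDIT3 rose by 0.82 and 0.70. MYC averaged 11.57 ± 0.28 in drug and 11.62 ± 0.37 in control flasks (95% confidence interval of the difference from -0.58 to 0.48). Asparagine synthetase, ASNS, a common readout of ATF4 activity, differed by 0.20 without passing (adjusted p = 0.498). In the same enzyme list, PSAT1 and PYCR1 rose by 0.77 and 0.76 (adjusted p = 0.00377 and 0.0166). PHGDH and PSPH differed by 0.32 and 0.51 without passing. These are levels of RNA, and protein levels and activities were not measured.

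**Figure D4:**
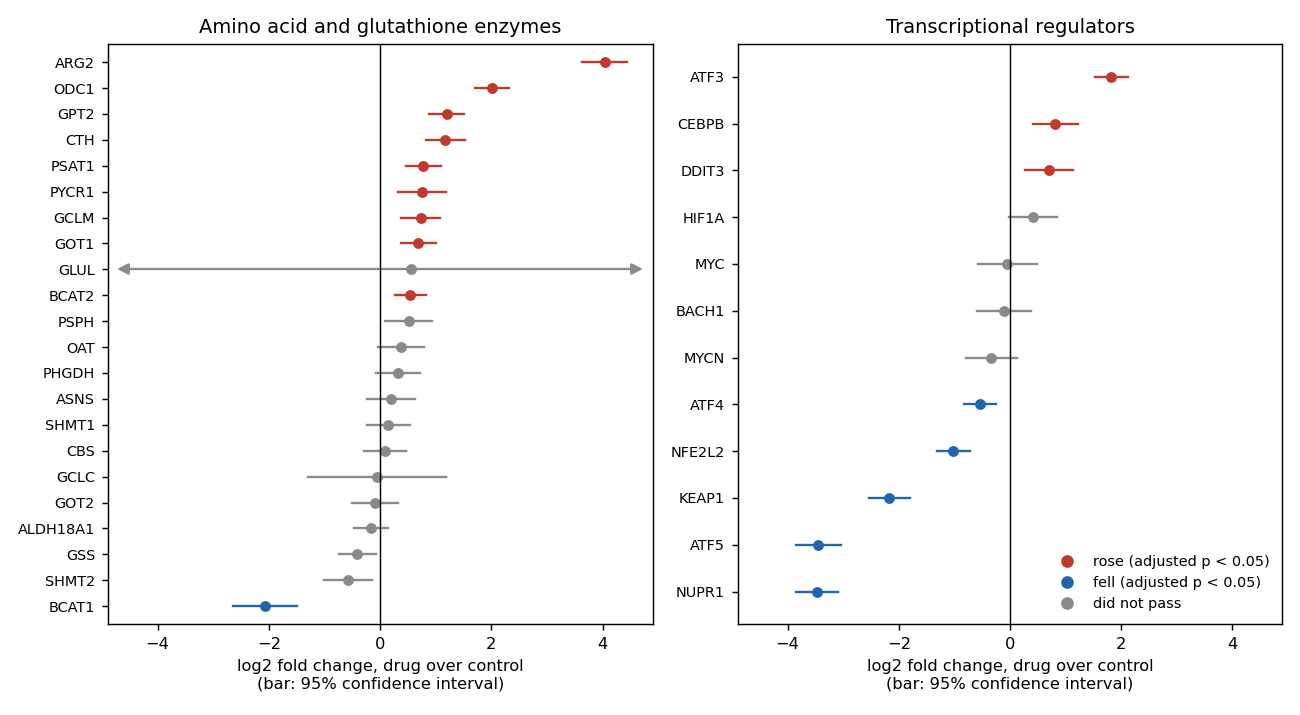
Change of 22 enzymes of amino acid and glutathione metabolism (left) and 12 transcriptional regulators (right), as log2 fold change of drug over control with its 95% confidence interval, coloured by call. ARG2 lies farthest right at 4.04 and NUPR1 farthest left at -3.48; the interval of GLUL, from -7.18 to 8.28, runs past the axis and ends in arrowheads.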

How the data were processed

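Amino-allyl aRNA labelled with Cy5 was hybridised to Phalanx OneArray slides, per the labels' protocols. The authors deposited linear intensities. How they corrected background and scaled arrays is not stated in the sources used here, and detection calls were not used. Since array medians differed by 0.34 (log2), intensities were quantile normalized, floored at 0, increased by 1 and put on the log2 scale. Before this, 462 of 31741 values lay below 0 on control 2 and 968 on control 5. On drug 4 there was 1 such value, and on control 6, drug 1 and drug 3 there were 0. The low end of the scale thus differed between arrays, and its effect on dim genes was not tested. Of all probes, 24740 named 1 gene, 977 several and 6024 none. Symbols outside the transporters were updated through RefSeq synonyms (GRCh38.p14).

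The 3 drug arrays were set against the 3 control arrays in limma 3.58.1 under R 4.3.3 (lmFit, eBayes without trend, two-sided, no covariate), with adjustment over all 31741 probes. The fit was tested on simulated data. Confidence intervals are 95% and not adjusted for the number of genes. Flasks are separate samples of the same line, and 3 arrays a group limit the precision. Every transporter was accounted for by role, and those called with at least a 2-fold change got values on all 6 arrays, as did some others chosen after their values were seen. From each list the called genes with the largest change were named, at most 4, and the further names (such as ASNS, MYC, CEBPB, DDIT3, NFE2L2 and ATF4) were chosen after their values were seen. Members and lists were chosen with earlier results of these data known. Alternatives covered scaling, the added constant, a filter on dim probes, the variance model, the probe rule, a minimum change and leaving out each array.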

Additional observations from a re-analysis of the deposited data

How the results depend on the processing

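Of the 14 transporters called, 11 kept the call and the direction under all 14 alternatives other than the minimum change. The exceptions were SLC7A1, SLC38A4 and SLC38A7. The ranges of adjusted p given for single genes also leave out the minimum change. SLC7A1 and SLC38A7 also lost the call on the values as deposited (adjusted p = 0.125 and 0.0687). The counts of 14 called, 4 higher and 10 lower, ran from 11 to 14, from 3 to 4 and from 8 to 11 when 1 array was left out. A required log2 change above 0.5, which asks for more, left 8 transporters, 2 higher and 6 lower, with 4217 probes in place of 10012 and 13 genes of the other lists in place of 26. On the values as deposited 6 transporters rose and 8 fell, 42.9% higher among those called in place of 28.6%, with SLC7A4 (0.59, adjusted p = 0.0398) and SLC43A1 (0.93, adjusted p = 0.0481) called and the median of all genes at 0.20. Of the 26 transporters not called, 21 were called under no alternative, and 14 changed sign under at least 1. As deposited, these were SLC1A2 (0.20), SLC7A10 (0.18), SLC3A1 (0.52), SLC7A9 (0.17), SLC7A13 (0.48), SLC36A2 (0.62) and SLC38A5 (0.0046). With median centring, which put the median of all genes at 0.074, they were SLC1A2 (0.073), SLC1A5 (-0.057), SLC7A10 (0.045), SLC3A1 (0.39), SLC7A9 (0.035), SLC7A13 (0.34), SLC36A2 (0.49) and SLC38A10 (-0.10). With the mean of a gene's probes, they were SLC1A6 (-0.0052), SLC7A2 (0.076) and SLC7A14 (-0.018). With 1 array left out, the difference ran from -0.078 to 0.16 for SLC1A7, from -0.13 to 0.081 for SLC1A4, from -0.37 to 0.14 for SLC3A1, from -0.10 to 0.14 for SLC7A14 and from -0.24 to 0.059 for SLC36A2. Nearly all deposited values below 0 were on control 2 and control 5, and the cause of these changes was not tested. No paired analysis was possible because the drug and control flasks share no replicate number. How far dim genes are limited by background is unknown, since no background measure was used.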

Other observations

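The brightest probe of glutamine synthetase, GLUL, which makes glutamine from glutamate, read 2.54, 13.07 and 13.58 on drug 1, 3 and 4, against 11.09, 4.22 and 12.24 on control 2, 5 and 6. Drug 1 and control 5 lay far below the other arrays of their groups. Its other probe differed by 0.011 between drug and control flasks (adjusted p = 0.965).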
